A study of Bos grunniens and Bos grunniens x Bos taurus with 2 samples.

Results

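The 7 genes *KIT*, *DMRT1*, *DMRTC2*, *NR6A1*, *SCML2*, *TKTL1* and *UCHL1* were followed through the germ cells and the somatic cells of the bovine testis. They were matched by symbol to the 26961 features of the yak annotation, and each symbol matched 1 feature. Testis of 1 yak (Bos grunniens) and of 1 cattle-yak (Bos grunniens x Bos taurus), both past sexual maturity, had been frozen, thawed, digested to single cells and captured with the 10x Genomics system, with no treatment and no exact age in the labels. The study's methods describe the yak as 4 years old. Both samples are testis by their labels, which also carry the entry "Germ cell", although most cells of either library held markers of somatic cells. One animal and 1 library stood for each group, so no test was possible, a difference between libraries has no replicate check, and all intervals are 95% intervals that cover counting error only.

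The yak library held 60816600 unique molecular identifiers (UMIs, counts of single RNA molecules) in 11991 cells, with a median of 2533 per cell, and the cattle-yak library 43774841 in 8930 cells, with a median of 3155. A total of 24 cell barcodes occurred in both. Of the cells with less than 30% mitochondrial UMIs, 1390 of 11114 in the yak and 330 of 7620 in the cattle-yak fell in clusters that carried germ cell markers (germ-like). The study lists 1127 yak barcodes as germ cells, in the types SSC (spermatogonial stem cell), SPG (spermatogonium), Early-SPC and Late-SPC (spermatocytes) and SPT (spermatid). Of the 84 cells listed as SSC, 76 fell in endothelial cell (EC-like) clusters and the other 8 in unnamed ones. Their spermatogonial (SPG-like) markers nevertheless summed to 634 counts per 1000000 UMIs, against 593 in the listed SPG and 157 in somatic cells, so that markers of both kinds were present and these cells are called here only by their label. Of the 486 cells listed as SPG, 196 fell in germ-like clusters and 258 in unnamed clusters.

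Spermatogonia renew themselves or commit to differentiation, and differentiating cells then leave mitosis, enter meiosis as spermatocytes and become haploid spermatids. *KIT* is the receptor tyrosine kinase for stem cell factor (*KITLG*), which Sertoli cells make, and it marks differentiating spermatogonia. *DMRT1* is a transcription factor that holds spermatogonia in mitosis and keeps them from meiosis, and its relative *DMRTC2* is needed by spermatocytes in pachytene. *NR6A1* is an orphan nuclear receptor of germ cells, and *SCML2* is a germ cell protein of the Polycomb group, the repressors of chromatin. *TKTL1* is a relative of the pentose phosphate enzyme transketolase, and *UCHL1* is a ubiquitin hydrolase long used to stain spermatogonia.

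The identifiers were ENSBGRG00000023915 for *KIT*, ENSBGRG00000003868 for *DMRT1*, ENSBGRG00000014389 for *DMRTC2*, ENSBGRG00000018410 for *NR6A1*, ENSBGRG00000014565 for *SCML2*, ENSBGRG00000023403 for *TKTL1* and ENSBGRG00000002608 for *UCHL1*. Over the whole yak library, the fewest counts fell on *KIT*, with 548, and the most on *UCHL1*, with 9508. In the cattle-yak library *KIT* was again lowest, with 412 counts, and *UCHL1* highest, with 14830. Counts differ between genes with transcript length and capture as well as with level, so levels are compared here only within a gene. They are given as CPM, the counts of a gene in the summed cells of a group per 1000000 UMIs of these cells.

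The germ-like yak cells were divided again without use of the 7 genes. Of the resulting sub-clusters, 10 had a median of at least 3000 UMIs per cell, and they were put in order by the summed levels of spermatogonial, early spermatocyte, late spermatocyte and spermatid markers. Each is called here by its leading gene that has a symbol. The *DUSP26* sub-cluster (102 cells) and the *CCNA2* sub-cluster (111 cells) were SPG-like. The *CTCFL* (51 cells), *RAD51AP2* (74 cells) and *TOP2B* (60 cells) sub-clusters were early-SPC-like. After an unnamed sub-cluster led by *PIWIL1* (44 cells) came the late-SPC-like *LHX1* (72 cells) and *NOTO* (75 cells) and the SPT-like *DTHD1* (51 cells) and *CSTL1* (88 cells) sub-clusters. *MORC1*, *PIWIL4* and *RET*, genes of undifferentiated spermatogonia, were among the leading genes of the *DUSP26* sub-cluster. So was *WT1*, from the list of Sertoli cell (SC-like) markers. Beside 13 SPG-like markers, 5 EC-like and 2 SC-like markers were among those enriched there. The SC-like markers summed to 242 CPM, against 17.7 CPM in the *CCNA2* sub-cluster and 76.2 CPM in somatic cells. The *CCNA2* sub-cluster was led by a cyclin of dividing cells.

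**Figure D1:**
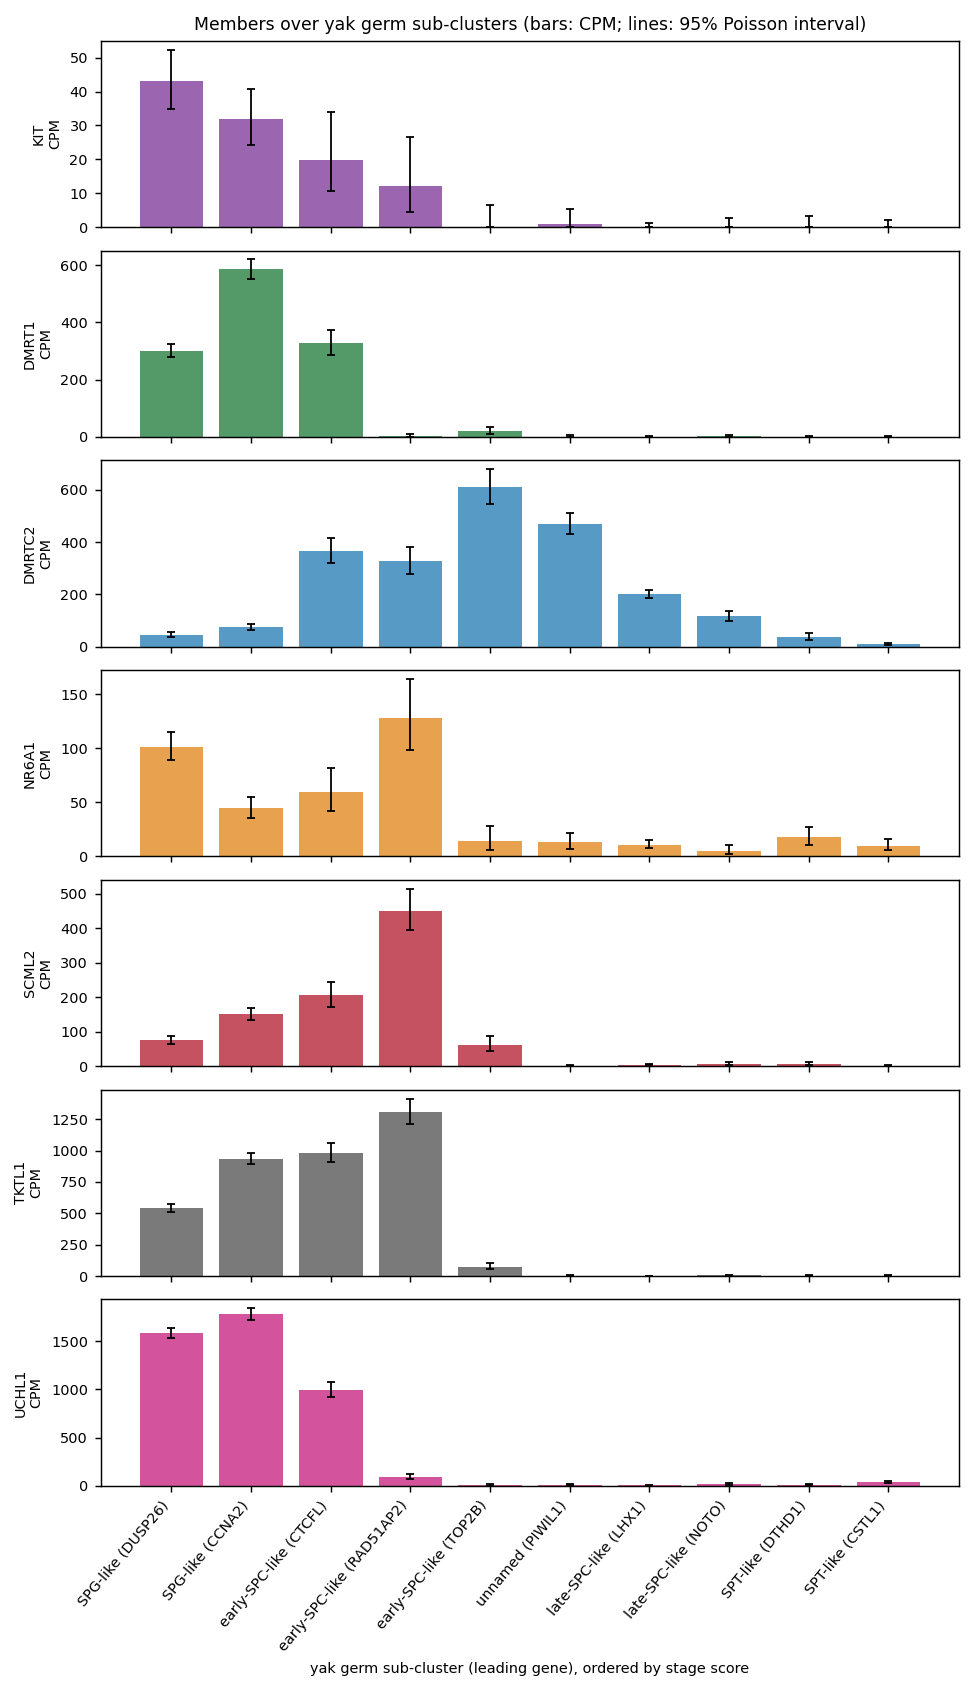
Level of the 7 genes (rows, CPM, linear axes from 0) in the 10 yak germ sub-clusters with a median of at least 3000 UMIs, in stage order from left to right. Bars are CPM of summed counts, and black lines are 95% Poisson intervals. *KIT* and *UCHL1* stand highest in the first 2 sub-clusters, and *DMRT1* in the *CCNA2* sub-cluster. *SCML2* and *TKTL1* stand highest in the *RAD51AP2* sub-cluster, and *DMRTC2* in the *TOP2B* sub-cluster.

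In the yak sub-clusters *KIT* had its highest value in the earliest germ cells and lower values at each of the following 4 positions. Its level was 43.0 CPM in the *DUSP26* sub-cluster (99 counts, interval 35.0 to 52.4) and 31.8 CPM in the *CCNA2* sub-cluster (61 counts, 24.3 to 40.8), and these intervals overlap. It was 19.9 CPM in the *CTCFL* sub-cluster (13 counts) and 12.2 CPM in the *RAD51AP2* sub-cluster (6 counts). Here again each interval overlaps the one before it, so the order of neighbours is not fixed by the counts, whereas the first and the fourth do not overlap. In the *TOP2B*, *LHX1*, *NOTO*, *DTHD1* and *CSTL1* sub-clusters *KIT* had 0 counts, which allows up to 5.39, 0.911, 2.17, 2.66 and 1.60 CPM in that order, and the *PIWIL1* sub-cluster held 1 count. The *KIT* transcript was thus below the range of the spermatogonia from the *TOP2B* sub-cluster onward. EC-like cells also carry *KIT*, and EC-like markers summed to 310 CPM in the *DUSP26*, 93.3 CPM in the *CCNA2*, 82.6 CPM in the *CTCFL*, 75.4 CPM in the *RAD51AP2* and 55.7 CPM in the *TOP2B* sub-cluster. Their part in the course of *KIT* was not tested.

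*DMRT1* followed a sharper course. It stood at 302 CPM in the *DUSP26* sub-cluster (279.6 to 325), at 585 CPM in the *CCNA2* sub-cluster (552 to 621) and at 327 CPM in the *CTCFL* sub-cluster (285 to 374). The *CCNA2* sub-cluster was above both of its neighbours, which overlap. In the next position, the *RAD51AP2* sub-cluster, 1 count of *DMRT1* remained among 74 cells (2.04 CPM, 0.0516 to 11.4). *DMRT1* was 19.8 CPM in the *TOP2B* sub-cluster (11 counts) and at most 2.89 CPM in the 5 later ones. The boundary of *DMRT1* therefore lay between the *CTCFL* and the *RAD51AP2* sub-clusters, both of which carry early meiotic markers.

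*DMRTC2*, of the same gene family, took a later course that overlapped that of *DMRT1*. It was 46.5 CPM in the *DUSP26* sub-cluster (38.1 to 56.2) and 74.5 CPM in the *CCNA2* sub-cluster (62.8 to 87.8). It reached 366 CPM in the *CTCFL* sub-cluster (321 to 415), 326 CPM in the *RAD51AP2* sub-cluster (278 to 381) and 611 CPM in the *TOP2B* sub-cluster (547 to 679). The first 2 of these 3 overlap, and the *TOP2B* sub-cluster was above both. Thereafter its level was 469.8 CPM in the *PIWIL1*, 202 CPM in the *LHX1*, 116 CPM in the *NOTO*, 37.3 CPM in the *DTHD1* and 10.1 CPM in the *CSTL1* sub-cluster, each interval below the one before. *DMRTC2* alone of the 7 had its maximum as late as the *TOP2B* sub-cluster.

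*NR6A1* had 2 high points. Its level was 102 CPM in the *DUSP26* sub-cluster (89.1 to 116) and 128 CPM in the *RAD51AP2* sub-cluster (98.7 to 164), and these intervals overlap. Between them it was lower, at 44.8 CPM in the *CCNA2* sub-cluster (35.8 to 55.4) and 59.7 CPM in the *CTCFL* sub-cluster (42.4 to 81.6). In the 6 later sub-clusters it lay between 5.06 and 17.8 CPM. *NR6A1* was thus the only transcription factor of the 3 that was lower in the *CCNA2* than in the *DUSP26* sub-cluster, with a log2 ratio of -1.16 against 0.95 for *DMRT1*.

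*SCML2* was higher at each of the first 4 positions than at the one before. It was 76.0 CPM in the *DUSP26* (65.2 to 88.2), 151 CPM in the *CCNA2* (134 to 169), 205 CPM in the *CTCFL* (172 to 243) and 451 CPM in the *RAD51AP2* sub-cluster (393 to 514), with no overlap between neighbours. The next step was down to 62.9 CPM in the *TOP2B* sub-cluster (43.8 to 87.4), and the *PIWIL1* sub-cluster held 0 counts of *SCML2*, which allows up to 2.81 CPM. From the *LHX1* sub-cluster onward it was at most 6.22 CPM.

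*TKTL1*, which lies on the X chromosome in human and mouse as *SCML2* does, had its maximum in the same cells. Its level was 540.2 CPM in the *DUSP26* (511 to 571), 933 CPM in the *CCNA2* (890.1 to 977), 984 CPM in the *CTCFL* (909 to 1063) and 1309 CPM in the *RAD51AP2* sub-cluster (1210 to 1414). The middle pair overlap, and the last was above both. *TKTL1* was 75.4 CPM in the *TOP2B* sub-cluster and between 0.936 and 5.78 CPM in the later ones. The highest and the following sub-cluster differed by 4.10 on the log2 scale for *TKTL1* and by 2.82 for *SCML2*, with lower levels in the *TOP2B* sub-cluster.

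*UCHL1* was highest in the spermatogonia. It stood at 1581 CPM in the *DUSP26* (1530.0 to 1633) and 1780.3 CPM in the *CCNA2* sub-cluster (1721 to 1841), a small step that exceeds the counting intervals. The *CTCFL* sub-cluster held 997 CPM (922 to 1077), and the *RAD51AP2* sub-cluster 95.8 CPM (70.4 to 127). From the *TOP2B* to the *DTHD1* sub-cluster *UCHL1* lay between 4.25 and 17.4 CPM, and it was 37.3 CPM in the *CSTL1* sub-cluster (29.1 to 47.1), above the 12.4 CPM of the *DTHD1* sub-cluster (6.80 to 20.9). *UCHL1* and *DMRT1* thus both stepped down between the *CTCFL* and the *RAD51AP2* sub-cluster, where *SCML2*, *NR6A1* and *TKTL1* were higher in the latter.

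The *CTCFL* sub-cluster held the spermatogonial and the meiotic members together, and they were found in the same cells. At 5000 UMIs drawn from each cell, 35 of its 46 cells of that depth (76.1%) had a UMI of both *DMRT1* and *DMRTC2*, and the product of the single shares was 75.2%. All 46 had UMIs of both *TKTL1* and *UCHL1*. In the *RAD51AP2* sub-cluster, 0 of 42 such cells had *DMRT1* beside *DMRTC2*, while 35 (83.3%) had *SCML2* beside *TKTL1*. Among 188 SPG-like cells, *DMRT1* and *UCHL1* shared 79.3% of cells against a product of 78.9%, so the pairs did not stand apart from what the single shares give. At least 3 of the 7 genes were found in 83.7% of cells of the *DUSP26*, 95.6% of the *CCNA2*, 100% of the *CTCFL* and 85.7% of the *RAD51AP2* sub-cluster at that depth. Because the product assumes equal cells and UMIs are sparse, no association within cells is read from these shares.

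The study's own types of germ cell gave a coarser view of the same order. In these types the study used *UCHL1* and *TKTL1* among its markers of SPG and *DMRTC2* among its markers of SPC, so their levels there describe the types. The 1127 listed cells were shallow, with a median of 979.5 UMIs in SPG and 1799.5 in Early-SPC, against 20498 and 18740 in the *DUSP26* and *CCNA2* sub-clusters. Ratios between neighbouring types are given as log2 of (CPM + 1), and a member counts as past the fold with a log2 ratio of at least 1 in size and at least 20 counts over both types.

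**Figure D2:**
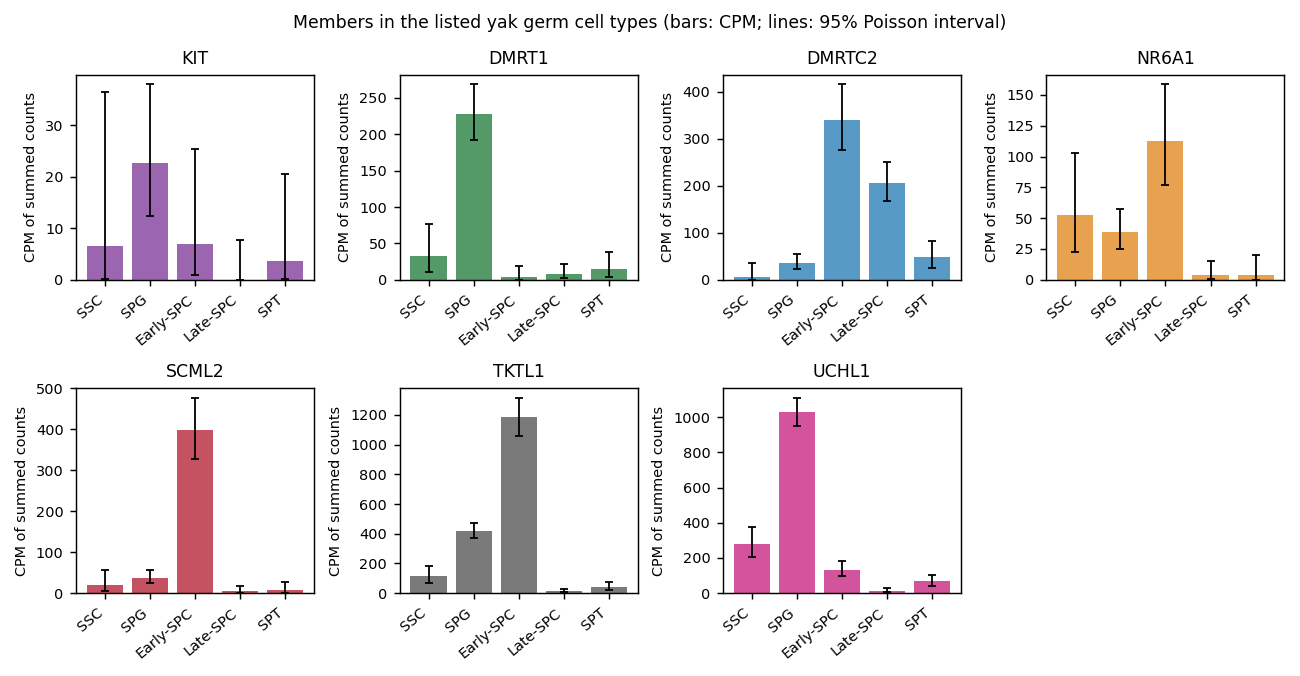
Level of the 7 genes (CPM of summed counts, linear axes from 0) in the 5 germ cell types listed by the study for the yak, with 84 SSC, 486 SPG, 72 Early-SPC, 261 Late-SPC and 224 SPT cells. Lines are 95% Poisson intervals. *DMRT1* and *UCHL1* stand highest in SPG, and *DMRTC2*, *SCML2* and *TKTL1* in Early-SPC.

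Between the listed SSC and SPG, 4 of the 6 members with enough counts were higher in SPG, where 23.3% of all genes were. These were *DMRT1* with 32.7 CPM (5 counts) and 228 CPM (141 counts), *DMRTC2*, *TKTL1* and *UCHL1*. The study used *TKTL1* and *UCHL1* as markers of SPG, so this count is not independent of the types. *DMRTC2* rested on 1 count in SSC and 22 in SPG, and its log2 ratio interval of -0.18 to 7.81 includes no difference. *KIT* had too few counts for this step, with 1 count in SSC and 14 in SPG (22.6 CPM, 12.4 to 38.0). *NR6A1*, at 52.3 CPM in SSC (8 counts, 22.6 to 103) and 38.8 CPM in SPG (24.8 to 57.7), did not separate them. The EC-like markers summed to 2214 CPM in the listed SSC and to 528 CPM in SPG, and their part in these differences was not tested.

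From SPG to Early-SPC, 4 of 6 members were higher, against 24.8% of genes, and 2 of 6 were lower, against 35.9%. *NR6A1* and *SCML2*, which the study did not use to name these types, were higher in Early-SPC: *NR6A1* had 112 CPM (76.9 to 159) against 38.8, and *SCML2* had 397 CPM (327 to 477) against 37.2 (23.6 to 55.8). *DMRT1* was lower, with 1 count in Early-SPC (3.51 CPM) after 228 CPM in SPG, a log2 ratio of -5.66. Smooth muscle (MC-like) markers summed to 5878 CPM in SPG and 755 CPM in Early-SPC, and their part in these differences was not tested.

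From Early-SPC to Late-SPC, 4 of 5 members were lower, where 28.3% of genes were. *SCML2* had 3 counts in Late-SPC (6.30 CPM), *NR6A1* had 2 (4.20 CPM), *TKTL1* had 7 (14.7 CPM) and *UCHL1* had 6 (12.6 CPM). *DMRTC2* was the exception at 206 CPM (167 to 251) after 341 CPM (276 to 416). *KIT* had 0 counts among the 261 Late-SPC cells, which allows up to 6.30 CPM.

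From Late-SPC to SPT, *DMRTC2* was lower at 47.9 CPM (25.5 to 81.8), where 27.9% of genes were lower, and *UCHL1* was higher at 66.3 CPM (18 counts), where 21.1% of genes were higher. These were the only 2 members with enough counts for that step. T/NK-like (lymphocyte) markers summed to 1035 CPM in the listed SPT cells and 437 CPM in Late-SPC, and their part in the *UCHL1* difference was not tested. Over all 4 steps 16 comparisons of members were past the fold, and 10 after thinning to 1000 UMIs, which leaves fewer counts.

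Deep germ cells, those above the mean plus 2 standard deviations of UMIs or genes of the library, would be removed by an upper limit on depth. In the yak 409 of the 1390 germ-like cells were deep. They held most UMIs of the germ-like cells and most counts of each member, so these counts alone are no result about the members. They were 175 of 196 for *KIT*, 1930 of 2239 for *DMRT1*, 7366 of 8624 for *UCHL1*, 3473 of 4755 for *TKTL1* and 619 of 930 for *SCML2*. In CPM, *UCHL1* was 554 in deep and 537 in all germ-like cells, *TKTL1* 261 and 296, and *SCML2* 46.5 and 57.9. None of the 7 members was past the fold between deep and listed germ cells, where 14.5% of genes were higher and 11.3% lower in deep cells. *DMRT1* was 145 CPM in deep cells (139 to 152) and 85.9 CPM in listed cells (72.9 to 101), the widest upward difference of the 7 at 0.75 on the log2 scale. *SCML2* was the lowest in relation, with 46.5 CPM (42.9 to 50.3) against 79.8 CPM (67.3 to 93.9). *KIT* was 13.2 CPM (11.3 to 15.3) in deep cells and 9.97 CPM (5.91 to 15.8) in listed cells, and these overlap. In deep cells the MC-like list summed to 583 CPM against 3334 CPM in listed cells. The germ stages differed too. Spermatid markers summed to 4522 CPM in deep against 1932 CPM in listed cells, and late spermatocyte markers to 3956 against 1835 CPM. Early spermatocyte markers summed to 2410.5 against 2977.5 CPM, and spermatogonial markers to 465 against 320 CPM. The part of muscle markers and of germ stages in these differences was not tested.

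Germ-like cells were then set against the somatic cells of named classes, 7296 in the yak and 5559 in the cattle-yak. In the yak 6 of 7 members were past the fold on the germ side, where 38.8% of 15715 genes were higher, and in the cattle-yak 7 of 7, where 34.2% of 13976 were. The median of all genes was 0.47 in the yak and 0.38 in the cattle-yak on the log2 scale, so germ-like cells were on the higher side in general. No member was lower in germ-like cells. The members' own ratios lay between 3.08 and 5.87 in the yak apart from *KIT*, far above these medians.

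**Figure D3:**
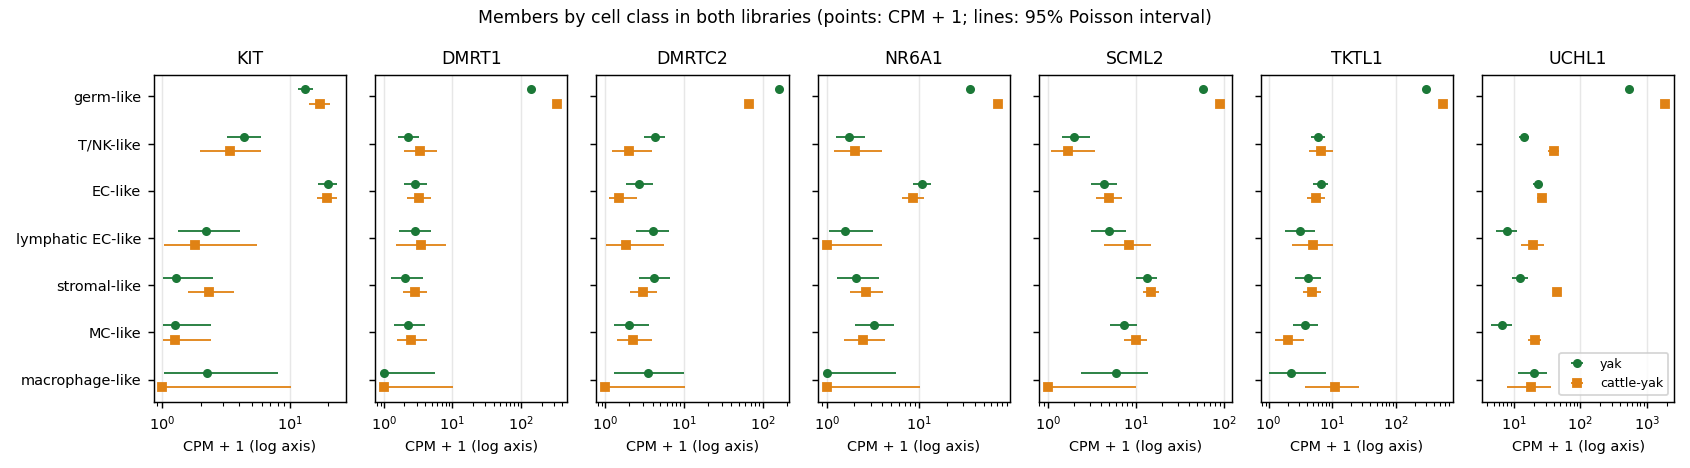
Level of the 7 genes (horizontal, CPM + 1 on a log axis) in 7 cell classes of the yak (green circles) and the cattle-yak library (orange squares). Points are summed counts of a class, and lines are 95% Poisson intervals. *KIT* alone has a somatic class, EC-like cells, at or above the level of the germ-like cells in both libraries.

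*DMRT1* was 139 CPM in yak germ-like cells (134 to 145) and 1.40 CPM in somatic cells (37 counts in 7296 cells). In the cattle-yak it was 338 CPM against 1.96 CPM. *DMRTC2* was 158 against 2.47 CPM in the yak and 66.4 against 1.17 CPM in the cattle-yak. Both DMRT genes were thus near absent from the named somatic classes of both libraries. Outside the germ-like clusters its highest level stood in 92 unnamed cattle-yak cells led by *AARD*, with *INHA*, a gene of Sertoli cells, among their leading genes, where 6 counts of *DMRT1* gave 34.9 CPM (12.8 to 76.0). *DMRT1* is also known as a Sertoli cell gene, and at the resolution used here no cluster of either library was named SC-like.

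*NR6A1* was 34.7 CPM in yak germ-like cells and 3.23 CPM in somatic cells, and 70.3 against 3.13 CPM in the cattle-yak. Its somatic counts were uneven, with 9.75 CPM in EC-like cells (64 counts, 7.51 to 12.5) and 0.751 CPM in T/NK-like cells (6 counts, 0.276 to 1.64) of the yak. The cattle-yak repeated this, with 7.69 CPM in EC-like (45 counts) and 1.02 CPM in T/NK-like cells (3 counts). *SCML2* had another pattern, with 12.3 CPM in stromal-like cells (46 counts, 8.99 to 16.4) and 1.00 CPM in T/NK-like cells (8 counts) of the yak, and 14.02 CPM (84 counts) against 0.679 CPM (2 counts) in the cattle-yak. So *NR6A1* had its highest named somatic class in EC-like cells and *SCML2* in stromal-like cells, in both libraries.

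*TKTL1* was 296 CPM in yak germ-like and 4.10 CPM in somatic cells, and 563 against 3.91 CPM in the cattle-yak. Within the yak EC-like cells it reached 17.6 CPM (34 counts, 12.2 to 24.6) in the cluster led by *BMX*, an arterial kinase gene. The study names *BMX* as a marker gene of SSC and reports, from immunohistochemistry, its protein in SSC next to the seminiferous tubules. The yak EC-like class also held 76 of the 84 cells listed as SSC and 21 listed as SPG. The listed SSC carried 18 counts of *TKTL1* (118 CPM) and 43 of *UCHL1* (281 CPM). Their part in the EC-like levels of these 2 genes was not tested. *UCHL1* was 537 CPM in yak germ-like and 13.4 CPM in somatic cells, and 1881 against 30.9 CPM in the cattle-yak. Its somatic level was thus higher in the cattle-yak, and so was its germ-like level. *UCHL1* was 11.5 CPM in yak stromal-like cells (8.31 to 15.5) and 43.5 CPM in those of the cattle-yak (38.4 to 49.2), and 13.4 (10.98 to 16.2) against 38.7 CPM (31.9 to 46.5) in T/NK-like cells. In EC-like cells of the 2 libraries it was 21.8 and 25.3 CPM, with overlapping intervals, but these pools hide a split between clusters. In the EC-like cluster led by *CA4* it was 9.93 CPM in the yak and 27.7 CPM in the cattle-yak. In those led by *BMX* it was 50.2 CPM in the yak, against 30.8 and 12.4 CPM in the cattle-yak. *UCHL1* was also seen in 308 unnamed cattle-yak cells led by *TNNI1* and *CYP11A1*, a gene of steroid synthesis, at 155 CPM (134 to 179), and at 36.4 CPM (28.5 to 45.9) in the 413 yak cells with the same leading genes.

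*KIT* differed from the other 6. In the yak it was 12.2 CPM in germ-like cells (196 counts, 10.6 to 14.03) and 5.997 CPM in somatic cells (158 counts, 5.10 to 7.01), a log2 ratio of 0.92 that stayed below 1. In the cattle-yak it was 16.1 CPM (13.1 to 19.5) against 6.16 CPM (5.13 to 7.34), a log2 ratio of 1.25. The yak value was 0.32 without the deep cells, 1.41 after thinning to 1000 UMIs and 0.55 against all cells that were not germ-like, so the side of the fold on which *KIT* falls is not fixed. The EC-like class held 124 of the 158 somatic counts of *KIT*, at 18.9 CPM (15.7 to 22.5), and 109 of 126 in the cattle-yak, at 18.6 CPM (15.3 to 22.5). In both libraries *KIT* was thus at least as high in EC-like as over all germ-like cells, a pool that includes later cells without *KIT*. In the 196 yak cells of the SPG-like sub-clusters with at least 3000 UMIs it was 38.2 CPM (32.5 to 44.6), above the EC-like cells. In the 224 cattle-yak cells nearest to these sub-clusters it was 16.2 CPM (13.1 to 19.9), which overlaps the EC-like interval.

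**Figure D4:**
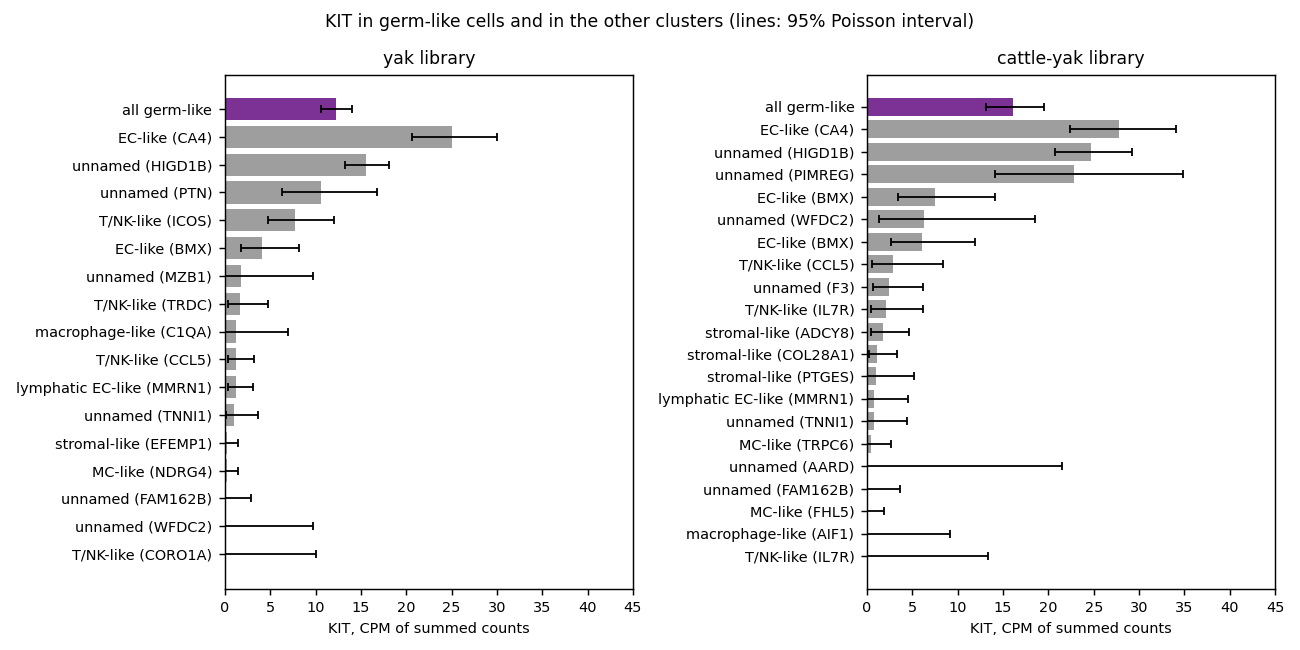
*KIT* (CPM of summed counts, linear axis from 0) in all germ-like cells (purple) and in each other cluster of at least 50 cells (grey), named by class and leading gene, in the yak (left) and the cattle-yak library (right). Lines are 95% Poisson intervals. The EC-like cluster led by *CA4* stands highest in both libraries, at 25.0 and 27.7 CPM.

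Among EC-like cells *KIT* was carried by the cluster led by *CA4*, a gene of capillary endothelium. In the yak this cluster of 800 cells held 25.0 CPM of *KIT* (116 counts, 20.7 to 30.0), with 1 count in 70 cells and more in 21, while the 350 cells of the *BMX* cluster held 4.14 CPM (8 counts, 1.79 to 8.16). In the cattle-yak the *CA4* cluster held 27.7 CPM (92 counts, 22.4 to 34.0) and a *BMX* cluster of 207 cells 6.02 CPM (8 counts, 2.60 to 11.9). The difference in *KIT* between these *CA4* and *BMX* clusters was thus present in both animals and larger than the counting error in each. A second cattle-yak cluster led by *BMX*, of 79 cells, held 7.45 CPM of *KIT* (9 counts). Whether these clusters are capillary and arterial cells was read from leading genes and was not tested. An unnamed cluster that joined endothelial and pericyte markers, led by *HIGD1B*, held 15.5 CPM in the yak and 24.7 CPM in the cattle-yak. In 1150 yak T/NK-like cells led by *ICOS* and *IL7R*, *KIT* was 7.77 CPM (20 counts, 4.75 to 12.0), against 1.24 CPM (0.339 to 3.18) in those led by *CCL5*. This was not seen in the cattle-yak, with 3 counts of *KIT* in the 578 T/NK-like cells led by *IL7R* and *ICOS* (2.11 CPM) and 3 in the 477 cells with *CCL5* among their leading genes (2.86 CPM). In the stromal-like and MC-like cells of the yak it had 1 count each.

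Shares of cells with a UMI, taken after thinning all cells to 1000 UMIs, separated most members from background. In 210 SPG-like yak cells, of 213 before thinning, *UCHL1* was found in 77.6% (71.4 to 83.1), *TKTL1* in 47.6% (40.7 to 54.6) and *DMRT1* in 34.8% (28.3 to 41.6). In 3489 T/NK-like cells, whose median before thinning was 1944 UMIs against 19129 in the SPG-like cells, the shares were 1.46%, 0.487% and 0.0573%. Without thinning the SPG-like shares were 100%, 96.7% and 92.5%, and those of T/NK-like cells 2.797%, 1.06% and 0.272%. *SCML2* was found in 10.0%, *NR6A1* in 6.19% and *DMRTC2* in 4.29% of thinned SPG-like cells. The intervals of these 6 lay above those of both T/NK-like and EC-like cells. *KIT*, in 4.29% of SPG-like cells (1.98 to 7.98), had an interval that overlapped that of EC-like cells, where it was found in 1.59% (0.932 to 2.54). EC-like cells carry *KIT* themselves, with 25.0 CPM in the yak *CA4* cluster, so they are not a background for this gene. At 5000 UMIs and without thinning the intervals of all 7 lay above both, and at 500 UMIs those of 4.

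The cattle-yak germ-like cells were compared with those of the yak, as 1 library with 1 other. Mitochondrial UMIs made up 13.1% of the yak and 22.2% of the cattle-yak library, and they are part of the CPM denominator. A mitochondrial limit of 20% would keep 1322 of 1390 yak and 170 of 330 cattle-yak germ-like cells. The ratios between the libraries were not recomputed under that limit. *DMRT1* and *UCHL1* were past the fold on the cattle-yak side, 2 of 7 members where 12.8% of genes were, and *DMRTC2* was on the yak side, 1 of 7 where 26.5% were. The log2 ratios were 1.27 for *DMRT1*, 1.81 for *UCHL1*, 1.00 for *NR6A1* (just below the fold), 0.92 for *TKTL1*, 0.62 for *SCML2*, 0.37 for *KIT* and -1.24 for *DMRTC2*. The libraries held different germ cells, however. Of 285 cattle-yak germ-like cells with at least 3000 UMIs, 224 (78.6%) had a profile, made without the 7 genes, nearest to the SPG-like yak sub-clusters, while 196 of 597 yak cells (32.8%) were in these. Of the yak cells held back to check this assignment, 96.6% went to their own sub-cluster. The genes compared were chosen with these cells included, and their sub-clusters came from the same cells. This share therefore does not show how well the cattle-yak cells were placed. No cattle-yak sub-cluster was named late-SPC-like or SPT-like, and none SPG-like. Names rest on markers enriched against the other germ-like cells of the same library, so a missing name does not show missing cells. The late spermatocyte markers summed to 407 CPM in the cattle-yak germ-like cells against 3617 CPM in those of the yak. They summed to 3775 CPM in 17 cattle-yak cells led by *PDCL2*.

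When only cells nearest to the SPG-like sub-clusters were compared, 5 members with higher levels in the cattle-yak over all germ-like cells had log2 ratios below 0. *DMRT1* was 379 CPM in the cattle-yak (363 to 395) and 429.9 CPM in the yak (410.3 to 450.2), a log2 ratio of -0.18. The log2 ratios of *SCML2*, *TKTL1* and *NR6A1* were -0.53, -0.31 and -0.02. *UCHL1* remained on the cattle-yak side at 0.34, and *DMRTC2* had -0.98. *KIT*, at -1.18, was the only member past the fold, where 7.81% of 11299 genes were lower and 3.12% higher. These values pool cells of both SPG-like sub-clusters in different proportions, and *DMRT1* differed between them, with 0.26 (0.13 to 0.39) at the *DUSP26* stage and -0.31 (-0.48 to -0.14) at the *CCNA2* stage.

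**Figure D5:**
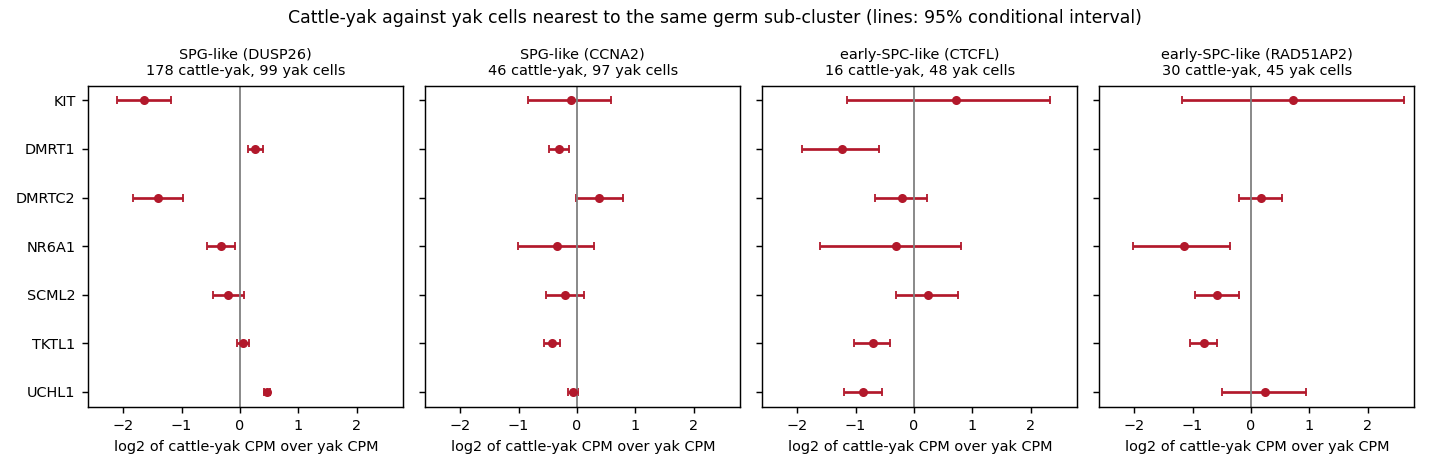
Log2 of the cattle-yak over the yak level for the 7 genes in cells nearest to the *DUSP26*, *CCNA2*, *CTCFL* and *RAD51AP2* sub-clusters (panels from left to right, numbers of cells above each). Points are ratios of CPM without an added value, lines are 95% exact conditional intervals, and a gene with 0 counts in the yak is not drawn. *KIT* and *DMRTC2* lie furthest to the left in the *DUSP26* panel, and *NR6A1* in the *RAD51AP2* panel.

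At the *DUSP26* stage 178 cattle-yak and 99 yak cells were compared. *KIT* was 13.9 CPM in the cattle-yak (66 counts, 10.7 to 17.6) and 43.1 CPM in the yak (99 counts, 35.1 to 52.5), a log2 ratio of -1.57 whose interval, for the ratio of counts, was -2.11 to -1.18. *DMRTC2* was 17.6 CPM (84 counts) against 46.6 CPM (107 counts), a log2 ratio of -1.35. These were 2 of 7 members past the fold, where 11.6% of 10631 genes were lower and the median of all genes was -0.26. *DMRT1* was 362 against 302 CPM, *TKTL1* 559 against 540.3 CPM, and *UCHL1* 2178 against 1581 CPM, with log2 ratios of 0.26, 0.05 and 0.46. *NR6A1* and *SCML2* had log2 ratios of -0.32 and -0.19. In the yak cells of this stage 12 of the 13 annotated EC-like markers had counts (all but *PLVAP*) and summed to 310 CPM, and in the cattle-yak cells 12 (all but *ESAM*) summed to 105 CPM. EC-like cells of the yak had 3705 CPM of this list, with 18.9 CPM of *KIT* over all of them and 25.0 CPM in the *CA4* cluster. MC-like markers summed to 1226 CPM in the yak and 447 CPM in the cattle-yak cells of this stage, and pericyte markers to 113 and 42.4 CPM. Sertoli cell (SC-like) markers differed less, with 242 CPM in the yak and 222 CPM in the cattle-yak cells. The part of these cell types in the *KIT* and *DMRTC2* differences was not tested.

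Within the cattle-yak, sub-clusters with high *UCHL1* differed in *KIT*. The sub-cluster led by *PIK3CD* (67 cells) held 3.94 CPM of *KIT* (6 counts, 1.45 to 8.58) and that led by *TCF19* (51 cells) 30.7 CPM (24 counts, 19.7 to 45.8). *UCHL1* stood at 2458 and 1594 CPM in these 2 sub-clusters. The *TCF19* sub-cluster also had more *DMRTC2* (114 CPM, 91.6 to 140.3) and *SCML2* (147 CPM, 122 to 177) than the *PIK3CD* sub-cluster, with 14.5 and 80.8 CPM. *TCF19* was also among the leading genes of the yak *CCNA2* sub-cluster, where *DMRTC2* and *SCML2* were likewise higher than in the other SPG-like cells while the *KIT* intervals overlapped.

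At the *CCNA2* stage, with 46 cattle-yak and 97 yak cells, all 7 log2 ratios lay between -0.42 (*TKTL1*) and 0.38 (*DMRTC2*). *KIT* was 29.8 CPM (25 counts, 19.3 to 44.0) against 32.2 CPM, a difference too small to be seen with these counts. Within the cattle-yak *KIT* was thus higher at this stage than at the *DUSP26* stage (13.9 CPM, 10.7 to 17.6). The yak values stood in the opposite order, with overlapping intervals. At the *CTCFL* stage only 16 cattle-yak cells were nearest. There *DMRT1* was 140 CPM (23 counts, 88.5 to 209) against 327 CPM, a log2 ratio of -1.23, and *UCHL1* was 546 against 1000.1 CPM. *TKTL1* was 601 against 983 CPM. Of 5010 genes, 16.9% were lower in the cattle-yak at the *CTCFL* stage and 5.97% higher. At the *RAD51AP2* stage, with 30 and 45 cells, *NR6A1* was 61.4 CPM (17 counts, 35.7 to 98.2) against 136 CPM and *TKTL1* was 765 CPM (666 to 875) against 1342 CPM. Of 4141 genes, 8.11% were lower in the cattle-yak there and 9.06% higher. *DMRTC2*, at 372 CPM (303 to 451) against 331 CPM, had a log2 ratio of 0.17 with an interval of -0.21 to 0.54. *DMRT1* had 2 counts in the cattle-yak and 0 in the yak at this stage. The step from high *DMRT1* to high *DMRTC2* and *SCML2* was therefore seen in both libraries, with fewer cells in the cattle-yak. For *TKTL1* it was seen in the yak. The cattle-yak interval of *TKTL1* at the *RAD51AP2* stage overlapped those at the *CCNA2* (641 to 756) and *CTCFL* stages (488 to 731). It lay above that at the *DUSP26* stage (538 to 581).

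The partners of the members were read from lists of 103 genes, of which 84 were in the annotation. In the yak 82 had enough counts, and 34 were past the fold on the germ side, where 38.8% of all genes were, and 17 on the somatic side, where 20.6% were. In the cattle-yak 39 and 13 of 76 were, where 34.2% and 21.2% of all genes were. In the yak the shares of all lists together, of the nuclear receptors and of the pentose phosphate genes were near these backgrounds and are no result about those lists. The higher counts of the Polycomb genes and of the genes of entry into meiosis were also near the yak background. These backgrounds apply to each count of list genes below. The lists were chosen with results of these data known, and 15 of the 21 genes of undifferentiated spermatogonia, 5 of 14 of the entry into meiosis and 1 of 6 of the DMRT family also served to name germ cells, so their direction is not independent of the classes.

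Of the *KIT* pathway, 13 of 17 genes were tested in the yak, with 1 higher and 6 lower in germ-like cells and a list median of -0.98. *KITLG*, the ligand, named after its values were seen, was 3.73 CPM in germ-like and 37.2 CPM in somatic cells of the yak, and 1.56 against 54.1 CPM in the cattle-yak. The phosphatase *PTPN11* (150 against 203 CPM), the exchange factor *SOS1* (33.8 against 46.6 CPM) and the lipid kinase *PIK3CA* (27.0 against 49.0 CPM) were somewhat lower in yak germ-like cells, and the ubiquitin ligase *CBL* was 39.0 against 23.8 CPM. None of these 4 was past the fold. In the cattle-yak 3 of 13 were higher and 1 lower, and *CBL* was 68.6 against 17.4 CPM. The other receptors of the *KIT* class, *PDGFRA*, *PDGFRB* and *CSF1R*, were lower in the germ-like cells of both libraries, and *FLT3* was on neither side. *PDGFRA*, *PDGFRB* and *CSF1R* also stood in the marker lists of stromal-like, pericyte-like and macrophage-like cells. Their direction is therefore not independent of the classes.

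All 5 tested relatives of *DMRT1* were on the germ side in the yak and 4 of 4 in the cattle-yak. *DMRTB1* was 104 CPM against 1.25 CPM in the yak and 71.7 against 0.489 CPM in the cattle-yak, and *DMRT2*, *DMRTA2* and *DMRTA1* were between 3.80 and 14.9 CPM in yak germ-like cells. Of the genes of entry into differentiation and meiosis, 4 of 8 were higher and 1 lower in the yak, where 38.8% and 20.6% of all genes were. *RBM46* (228 against 1.90 CPM) and *MEIOC* (168 against 2.20 CPM), both RNA-level regulators needed for meiosis, were higher, *YTHDC2*, the partner of *MEIOC*, was 83.4 against 43.9 CPM, and the retinoic acid receptor *RARA* was lower at 33.0 against 85.6 CPM. Of the undifferentiated spermatogonia list 9 of 16 were higher and 2 lower. *SPOCD1* (58.2 against 2.43 CPM) and *LIN28B* (27.3 against 0.531 CPM) were higher, while *ZBTB16* (58.5 against 74.3 CPM) and *FOXO1* (67.9 against 102 CPM), both also used by somatic cells, were not past the fold. In the cattle-yak *ZBTB16* was 372 against 109 CPM and *FOXO1* 190.1 against 79.5 CPM, both past it.

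Of the Polycomb genes around *SCML2*, 8 of 17 were higher and 1 lower in yak germ-like cells, where 38.8% and 20.6% of all genes were. The list median was 0.83 where all genes had 0.47. The deubiquitinase *USP7* was 412 against 88.2 CPM, the methyltransferase *EZH2* 333 against 50.8 CPM and *PHC2* 212 against 77.1 CPM, while *RING1* was 202 against 138 CPM. In the cattle-yak *EZH2* and *USP7* were again higher, at 289 and 349 CPM in germ-like cells, but *PHC2* (96.2 against 73.0 CPM) and *RING1* (81.2 against 144 CPM) were not. Among nuclear receptors other than *NR6A1*, 3 of 10 were higher and 3 lower in the yak. *RARB* was 73.6 against 22.1 CPM and *NR2C1* 42.5 against 16.9 CPM, while *RXRB* and *NR1D1* had log2 ratios of -0.06 and 0.10.

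*TKTL1* and its parent enzyme were opposed. Transketolase (*TKT*) was 14.3 CPM in germ-like and 72.6 CPM in somatic cells of the yak, and 30.5 against 75.8 CPM in the cattle-yak, where *TKTL1* was on the germ side in both. *TKTL2* was 11.5 CPM in yak germ-like cells against 0.152 CPM, and had too few counts in the cattle-yak. *RPIA*, an isomerase of the same pathway, was 98.7 against 35.4 CPM. In all, 2 of 6 pathway genes were higher and 1 lower in the yak. Of the hydrolases related to *UCHL1*, 2 of 3 were higher in the yak and 3 of 3 in the cattle-yak. *UCHL3* was 139.9 against 30.9 CPM, *BAP1* 27.5 against 4.55 CPM and *UCHL5* 49.1 against 29.8 CPM in the yak.

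Over 30 yak groups of cells, the profiles of members and of 9942 genes were compared by Pearson's r of log2(CPM + 1), as a description, since all groups share 1 library and germ and somatic groups differ in depth. *DMRT1* and *UCHL1* were the most alike of the members (r = 0.89), followed by *DMRT1* and *TKTL1* (0.86), and *KIT* and *DMRTC2* the least (0.16). The 3 genes most like *KIT* were *KLHL13* (0.86), *JAG2* (0.83) and *HMGXB3* (0.81), lower values than for any other member. *ACTL8* (0.95), *NWD2* (0.93) and *NEFL* (0.93) were most like *DMRT1*, and *RADX* (0.93), *CRABP1* (0.91) and *ACTL8* (0.91) most like *UCHL1*. *MEIOC* (0.96), *CTR9* (0.96) and *CCDC18* (0.95) were most like *DMRTC2*. *TEX11* (0.95), *SLPI* (0.95) and *NRAP* (0.93) were most like *TKTL1*. *ACACA* (0.92), *MPP5* (0.91) and *ZFR* (0.88) came nearest to *SCML2*, and *ESF1* (0.92), *DNAJB6* (0.90) and *C1orf146* (0.89) nearest to *NR6A1*.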

How the data were processed

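The values deposited by the authors are raw counts, 1 table of UMIs per library. The file headers name Cell Ranger 5.0.0 and the submitters' processing notes 2.1.1, and the paper's methods name another version and the yak genome build. The 7 genes and all lists were chosen with earlier results of these data known. Cells with less than 30% mitochondrial UMIs were kept without an upper limit on depth, clustered in scanpy 1.11.5 (2000 variable genes, 30 components, 15 neighbours, Leiden resolution 1) without the 7 genes and the genes the study names, and named from marker lists (3 markers enriched by a log2 ratio of 1 and found in 10% of cells). Counts were summed per group and given as CPM with exact Poisson intervals, shares with exact binomial intervals. Log2 ratios add 1 CPM to each side. Ratio intervals are exact conditional ones without it. The 3 counts compatible with a count of 0 set the stated limits. Listed barcodes came from the study's supplement. Scrublet called 0 yak cells and has not worked there (251 in the cattle-yak), so no doublet was removed. Named genes were all members, up to 4 genes per list by germ-like counts, and the 3 genes most like each member. One gene this rule names is not reported here. The fold count was tested on simulated data. Alternatives concerned depth limits, thinning, denominator, weights, resolution and the value added. The assignment of cattle-yak cells to the nearest of the yak sub-clusters by the correlation of 1000 genes, among cells of at least 3000 UMIs, was chosen after seeing the data. No replicate exists, so no test was run. Genome coordinates and sequences are not given here.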

Additional observations from a re-analysis of the deposited data

How the results depend on the processing

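Of 308 log2 ratios of members recomputed under alternatives, 218 moved by no more than their counting interval reaches to either side, 89 by more, and 1 past the fold changed sign. With only the cells nearest to the SPG-like yak sub-clusters (added once the data had been seen), the ratio between the libraries changed sign for *DMRT1* (-0.18), which had been past the fold, and for *KIT* (-1.18), *SCML2* (-0.53), *TKTL1* (-0.31) and *NR6A1* (-0.02), which had not, and the number of members past the fold went from 3 to 1. Thinning to 1000 UMIs took the steps between listed types past the fold from 16 to 10. A log2 ratio of 2 in place of 1 left 21 of the 34 list genes on the germ side of the yak. The other counts stayed within 1.5 times. At Leiden resolution 2 and with 5 CPM added, 6 of 7 members were past the fold in the cattle-yak, and against all cells that were not germ-like also 6, the last chosen after seeing the data. At resolution 2 the cattle-yak germ-like cells were 63 in place of 330, with a cluster of 262 cells that carried germ cell markers left unnamed, and *DMRT1* had 3.17 and *UCHL1* 2.18. Low counts limit *KIT*. Its 0 counts in the *LHX1*, *NOTO*, *DTHD1* and *CSTL1* sub-clusters, however, fell in cells with medians between 10440 and 35538 UMIs. No paired analysis was possible because each group holds 1 library and no test was run.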

Other observations

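In 1006 shallow yak cells that met no naming rule (median 977.5 UMIs), led by *PTN* and *APOE*, all members were found at levels between somatic and germ-like cells, with 82.4 CPM of *UCHL1* (69.3 to 97.3), 50.6 CPM of *TKTL1* (40.5 to 62.5) and 21.2 CPM of *DMRT1* (14.8 to 29.3). Of the 486 cells listed as SPG, 258 lay in unnamed clusters. In the top 10% of doublet scores were 12.2% of the yak germ-like cells and 6.39% of the somatic cells, and 19.4% and 7.30% in the cattle-yak. Without these cells *KIT* had a log2 ratio of 0.84 between germ-like and somatic yak cells.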
